A study of Mus musculus with 10 samples.

Results

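Ybx2, Ybx3, Dazl, Boll, Dazap1, Pabpc1, Pabpc2, Papolb, Cpeb1 and Cpeb2 encode proteins that bind, store, polyadenylate or translate messenger RNA in male germ cells. These 10 genes of 55421 in the count files were taken by name, and each name matched 1 Ensembl mouse gene. Expression was measured by poly(A)-selected, stranded RNA-seq of testes of 21-day-old mice (P21), with 3 wild type libraries (replicates 1, 2 and 3) and 3 Mov10-/- libraries (replicates 2, 3 and 4). MOV10 binding was measured by CLIP-seq, in which RNA crosslinked to the protein is immunoprecipitated and sequenced, in 4 libraries from wild type testes of the same age (replicates 1, 2, 3 and 5). Their RNA was cut from the main MOV10 band and from a higher position on the gel, and the labels do not tie a library to a position, so gel position and replicate cannot be told apart. The Mov10-/- mice lack the RNA helicase MOV10 in all tissues: a floxed allele carrying loxP sites around part of the gene was recombined by Actb-Cre, which is active ubiquitously, on a mixed 129, C57BL/6 and FVB background. The loss is therefore not restricted to germ cells, and whole testis holds germ cells of every type present together with somatic cells. No CLIP-seq library from Mov10-/- testis or from a control antibody was analysed here.

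Meiotic and haploid male germ cells make many mRNAs well before they are translated, since transcription stops as spermatid chromatin is compacted. Y-box proteins coat and store these mRNAs, DAZ-family and CPEB proteins read sequence elements in their 3′ ends, and poly(A) polymerases and poly(A)-binding proteins set and read the length of their tails. At this age the first wave of spermatogenesis has reached the round spermatid stage, so spermatogonia, spermatocytes and early spermatids are all present.

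In RNA-seq, 5083407 to 9230540 reads per library fell on genes, and the share of reads that did not align was 57.2% in Mov10-/- replicate 3, against 26.5% to 35.9% in the other 5 libraries. Mov10 itself stood at 29.2, 26.7 and 26.8 CPM (counts per 1000000 reads on genes, scaled by TMM) in Mov10-/- replicates 2, 3 and 4 and at 114, 96.8 and 120 CPM in wild type replicates 1, 2 and 3, a log2 fold change of -1.999 (SE 0.12; edgeR quasi-likelihood adjusted p = 0.00552), so the libraries carried the genotypes of their labels. All the markers listed for spermatogonia, spermatocytes, spermatids and Sertoli cells were detected in at least 1 of the 6 libraries. In CLIP-seq 99.5% to 99.6% of the reads in the deposited tallies were not aligned, and whether the study's own CLIP-seq analysis rests on this alignment is not given in the sources used here. Per library CLIP-seq placed only 3404 to 4934 reads on genes, so that 1 read was worth 203 to 294 RPM, or reads per 1000000 reads on genes.

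None of the 10 genes differed between genotypes by the criterion of a change above 2-fold with an adjusted p below 0.05. All 10 passed the filter on low counts, 0 were called lower and 0 higher, and 0 were called by DESeq2 or by the edgeR exact test. Over all 20240 genes tested, 0.00494% were called, which is Mov10 alone, while DESeq2 called 5.24% of the genes it gave an adjusted p and the edgeR exact test 5.37%. At an unadjusted p below 0.05, 2 of the 10 genes were lower in Mov10-/- testis, Papolb and Cpeb2, and 0 were higher, against a background of 11.9% lower and 5.58% higher. The median log2 fold change of the 10 genes was 0.09, and that of all genes tested was 0.03. Over the 10 genes, the lowest limit of a 95% interval was 0.590-fold (Papolb) and the highest 1.48-fold (Ybx2). In bulk testis, fewer cells of a type and less RNA per cell cannot be told apart, and this holds for each level below.

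**Figure D1:**
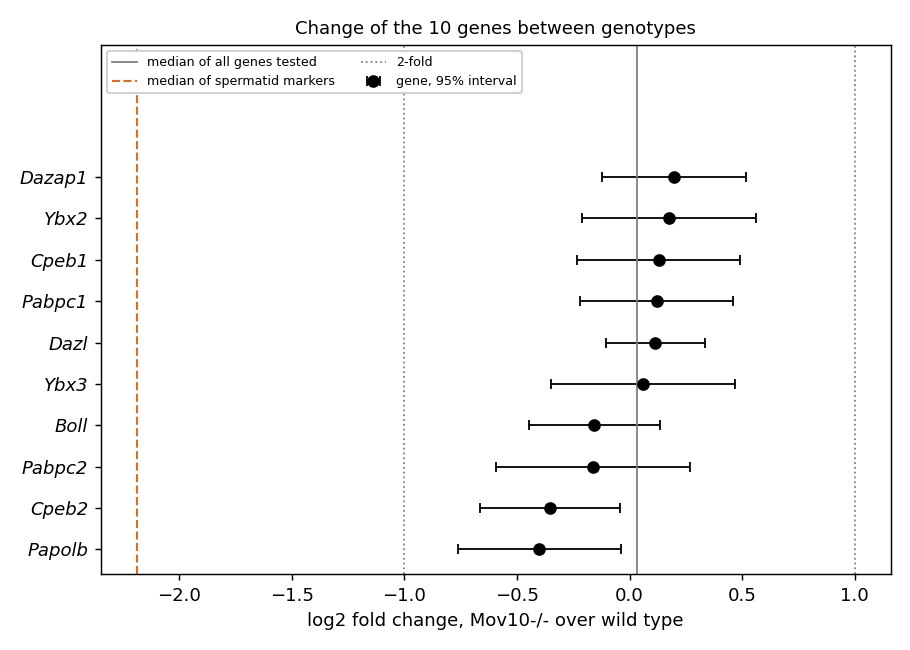
Log2 fold change of each of the 10 genes, Mov10-/- over wild type, with its 95% interval from the edgeR quasi-likelihood fit; the grey line is the median of all genes tested (0.03), the dashed line the median of the spermatid markers (-2.19) and the dotted lines a 2-fold change. The intervals of Papolb and Cpeb2 lie below 0, those of the other 8 genes span 0, and all 10 lie inside the dotted lines.

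All 10 genes were well covered by reads. Expressed as RPKM (RPM per kilobase of exon), the mean wild type level ran from 15.5 ± 3.07 for Cpeb1 to 72.3 ± 3.88 for Ybx2 (SD, n = 3), which is between the 70.9th and the 99.8th percentile of all genes tested. Between these ends stood, in RPKM, Pabpc2 at 71.5 ± 7.97, Ybx3 at 56.6 ± 6.06, Papolb at 50.4 ± 7.17, Dazl at 43.7 ± 4.94, Pabpc1 at 39.7 ± 2.24, Boll at 36.8 ± 2.26, Dazap1 at 33.2 ± 2.75 and Cpeb2 at 21.8 ± 3.02. Only 3 neighbours in this order had wild type ranges that did not overlap, Pabpc2 over Ybx3, Dazap1 over Cpeb2 and Cpeb2 over Cpeb1. The order depends on the length used: per kilobase of the longest transcript, Ybx3 came first at 93.9 RPKM, Pabpc1 second at 89.0 and Ybx2 came after them at 81.5. In Mov10-/- testis the level per kilobase of exon again ran from Cpeb1, at 17.03 ± 2.58 RPKM, to Ybx2, at 81.9 ± 16.4 RPKM. There Cpeb2, at 17.2 ± 1.29 RPKM, overlapped Cpeb1 in range, and Papolb, at 38.4 ± 4.49 RPKM, came after Dazl and Pabpc1.

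YBX2 and YBX3 are Y-box proteins that package germ-cell mRNAs in translationally silent particles. Ybx2 (chromosome 11) stood at 127, 198 and 143 CPM in Mov10-/- replicates 2, 3 and 4 and at 129, 150 and 133 CPM in wild type replicates 1, 2 and 3. Mov10-/- replicate 3 was the highest library and Mov10-/- replicate 2 the lowest, so the knockout values enclosed those of wild type. The log2 fold change was 0.18 (SE 0.17; adjusted p = 0.612), and it was -0.03 without Mov10-/- replicate 3. Ybx3 (chromosome 6) followed the same order of libraries, with 147, 230 and 173 CPM in Mov10-/- and 155, 202 and 169 CPM in wild type. Its log2 fold change was 0.06 (SE 0.18; adjusted p = 0.877), and leaving out Mov10-/- replicate 3 gave -0.13. Neither sign was stable, and the genotypes overlapped for both genes. Ybx1, the broadly expressed family member, had a log2 fold change of 0.14 (adjusted p = 0.689), so 0 of the 3 Y-box genes passed the test in either direction. Ybx1 counts are less certain, since 25.1% of its 50-base windows also occur in transcripts of other genes, whereas none of those of Ybx2 and Ybx3 do.

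DAZL and BOLL are relatives that bind the 3′ untranslated regions of germ-cell mRNAs; DAZL acts from the primordial germ cell stage on and BOLL in meiotic and later cells, while DAZAP1 is an RNA-binding partner of DAZ proteins. Dazl (chromosome 17) was the steadiest of the 10 genes, at 183, 178 and 183 CPM in Mov10-/- replicates 2, 3 and 4 and 182, 153 and 167 CPM in wild type replicates 1, 2 and 3. Its highest library was 1.196 times its lowest, wild type replicate 2, and the log2 fold change was 0.11 (SE 0.10; adjusted p = 0.566), or 0.059 without that library. Boll (chromosome 1) had its highest level in that same wild type replicate 2. Its values were 101, 117 and 133 CPM in Mov10-/- and 121, 144 and 126 CPM in wild type, with a log2 fold change of -0.16 (SE 0.13; adjusted p = 0.555) that was -0.061 without Mov10-/- replicate 2, -0.076 without wild type replicate 2 and -0.26 without Mov10-/- replicate 4. Dazap1 (chromosome 10) measured 95.8, 133 and 110 CPM in Mov10-/- and 89.1, 101 and 105 CPM in wild type, a log2 fold change of 0.20 (SE 0.14; adjusted p = 0.502). Here too Mov10-/- replicate 3 was the highest library, and the genotypes overlapped. The log2 fold change was 0.065 without that library, 0.11 without wild type replicate 1 and 0.30 without Mov10-/- replicate 2. Of the 4 genes of the DAZ list, which adds Dazap2, 0 passed the test at an unadjusted p below 0.05.

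PABPC1 is the general cytoplasmic poly(A)-binding protein, and Pabpc2 is an intronless relative expressed in male germ cells. Pabpc1 (chromosome 15) stood at 246, 348 and 261 CPM in Mov10-/- replicates 2, 3 and 4 and at 248, 288 and 249 CPM in wild type replicates 1, 2 and 3. The log2 fold change was 0.12 (SE 0.15; adjusted p = 0.699), and it was -0.05 without Mov10-/- replicate 3, the highest library. Of the 50-base windows of Pabpc1, 20.7% also occur in transcripts of other genes, mostly the pseudogene Gm16580, which makes its counts less certain than those of the other 9 genes. Pabpc2 (chromosome 18), which shares no 50-base window with another gene, had 131, 213 and 157 CPM in Mov10-/- and 180, 215 and 164 CPM in wild type. Its log2 fold change was -0.16 (SE 0.19; adjusted p = 0.677), and its highest libraries were wild type replicate 2 and Mov10-/- replicate 3. The log2 fold change ran from -0.015 without Mov10-/- replicate 2 to -0.37 without Mov10-/- replicate 3, and was -0.047 without wild type replicate 2 and -0.26 without wild type replicate 3. In the list of poly(A)-binding proteins and their regulators, 10 of 12 genes could be tested and 0 passed an unadjusted p below 0.05, although in 2 of them, Pabpc4 and Paip2b, the lowest knockout value exceeded the highest wild type value. Over all genes tested, 11.9% had knockout values wholly above those of wild type in this way, and 14.1% had them wholly below.

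PAPOLB is the testis-specific poly(A) polymerase, which lengthens poly(A) tails in the cytoplasm of spermatids, and it is closely related to the nuclear enzyme PAPOLA. Papolb (chromosome 5) had 137, 183 and 170 CPM in Mov10-/- replicates 2, 3 and 4 and 208, 255 and 183 CPM in wild type replicates 1, 2 and 3. The genotypes overlapped at a single point, where Mov10-/- replicate 3 and wild type replicate 3 met at 183 CPM. The log2 fold change was -0.40 (SE 0.16), the lowest of the 10 genes, with an unadjusted p of 0.0340 and an adjusted p of 0.247 that ranged from 0.164 to 0.855 over the alternatives; without wild type replicate 2, its highest library, the log2 fold change was -0.26. Papola was level, at 199, 192 and 194 CPM in Mov10-/- and 195, 194 and 189 CPM in wild type (log2 fold change 0.02, SE 0.08, adjusted p = 0.927).

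Papolb and Papola are alike enough that their separation by sequence bears on these values. Their coding sequences are identical at 85.2% of aligned bases, and the most alike gap-free stretch of 90 bases, with the 2 differing bases in capitals, is printed here from the GENCODE transcripts on GRCm38. The Papolb stretch lies in its coding exon at chr5:142529329-142529418 on the minus strand, and that of Papola is on the plus strand of chromosome 12, within 105807189 to 105808614, where an intron divides it.
Papolb: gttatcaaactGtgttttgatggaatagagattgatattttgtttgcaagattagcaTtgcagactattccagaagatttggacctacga
Papola: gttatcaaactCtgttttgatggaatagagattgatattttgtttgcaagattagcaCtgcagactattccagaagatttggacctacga
Even so, only 0.382% of the 50-base windows of Papolb, and 0% of its 100-base windows, occur in Papola or another gene, so reads of these lengths can be assigned to one or the other almost everywhere.

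CPEB1 and CPEB2 bind the cytoplasmic polyadenylation element and either repress or activate the mRNAs that carry it; CPEB1 is needed for germ cells to progress through meiosis. Cpeb1 (chromosome 7) was the least abundant of the 10 genes, at 76.9, 61.7 and 75.5 CPM in Mov10-/- replicates 2, 3 and 4 and 75.6, 53.3 and 67.1 CPM in wild type replicates 1, 2 and 3. Its lowest library was wild type replicate 2, and the log2 fold change was 0.13 (SE 0.16; adjusted p = 0.697). It was 0.010 without that library, 0.073 without Mov10-/- replicate 2, 0.22 without Mov10-/- replicate 3 and 0.24 without wild type replicate 1. Cpeb2 (chromosome 5) measured 125, 134 and 144 CPM in Mov10-/- and 152, 206 and 159 CPM in wild type. It was the one gene of the 10 whose knockout values all lay below the wild type values, and 14.1% of all genes tested showed that order. The log2 fold change was -0.35 (SE 0.13), with an unadjusted p of 0.0300 and an adjusted p of 0.236 that ranged from 0.171 to 0.768 over the alternatives; without wild type replicate 2 the log2 fold change was -0.20. Cpeb4, a close relative of Cpeb2, had the same order of genotypes, at 109, 88.4 and 113 CPM in Mov10-/- and 123.4, 138 and 121 CPM in wild type (log2 fold change -0.30, SE 0.12, adjusted p = 0.251). Among the 13 genes of the CPEB list and its partners, Cpeb2 and Cpeb4 were the 2 lower at an unadjusted p below 0.05, and 0 were higher. Over all genes tested these shares were 11.9% and 5.58%.

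**Figure D2:**
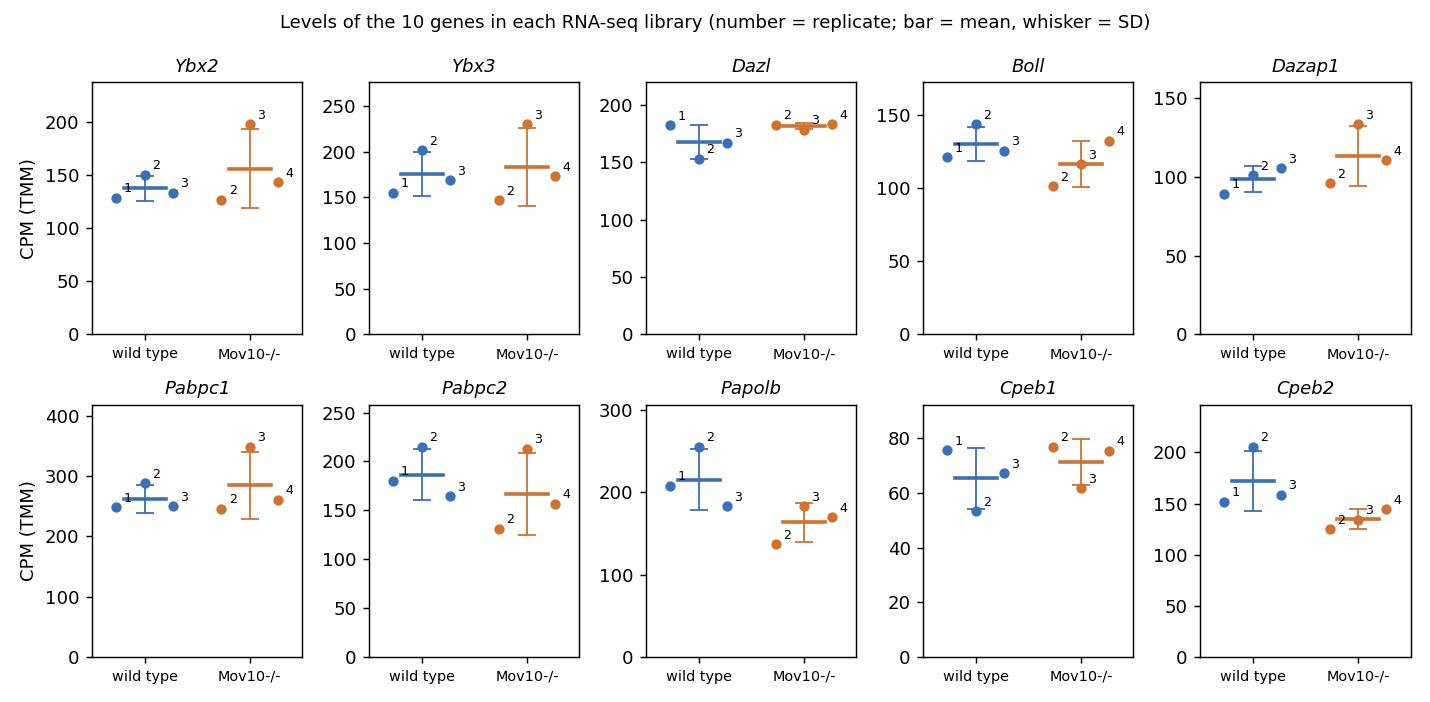
CPM of each of the 10 genes in the 3 wild type and 3 Mov10-/- libraries, 1 panel a gene with its own axis from 0; the number beside a point is the replicate, the bar the mean and the whisker the SD. Cpeb2 has all 3 Mov10-/- points below the 3 wild type points, and Ybx2, Ybx3, Dazap1 and Pabpc1 have Mov10-/- replicate 3 as their highest point.

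The libraries split the 10 genes in ways that cut across genotype. Mov10-/- replicate 3 was the highest library for 4 genes, Ybx2, Ybx3, Dazap1 and Pabpc1, and wild type replicate 2 was the highest for 4 others, Boll, Pabpc2, Papolb and Cpeb2. The lowest library was Mov10-/- replicate 2 for 7 of the 10 genes, and it was wild type replicate 2 for Dazl and Cpeb1. Between the highest and the lowest library the ratio of CPM ran from 1.196 for Dazl to 1.86 for Papolb. Mov10-/- replicate 3 is also the library with 57.2% unaligned reads, and the one with the highest summed level of spermatocyte markers. The part of either in the 4 genes was not tested.

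Markers of the germ-cell stages moved with some of these genes. Of 22 spermatid markers 21 could be tested, with a median log2 fold change of -2.19. At an unadjusted p below 0.05, 19 were lower, against 11.9% of all genes tested. Knockout values lay wholly below wild type in 12, against 14.1%. The quasi-likelihood test called 0, DESeq2 16 and the edgeR exact test 14. Over all genes these tests called 0.00494%, 5.24% and 5.37%. The summed level of the spermatid markers was 203, 542 and 311 CPM in Mov10-/- replicates 2, 3 and 4. It was 820, 1831 and 593 CPM in wild type replicates 1, 2 and 3. The order of the libraries by their score, the mean of log2 CPM centred on each marker, was wild type 2, 1 and 3 and then Mov10-/- 3, 4 and 2. Papolb had that order apart from wild type replicate 3 and Mov10-/- replicate 3, which were level. Cpeb2, Boll and Pabpc2 had the same first and last library. The 20 spermatocyte markers had a median log2 fold change of 0.03, with summed levels of 2185 to 2624 CPM in Mov10-/- and 2315 to 2483 CPM in wild type. Their level was highest in Mov10-/- replicate 3 and lowest in Mov10-/- replicate 2, as was that of Ybx2, Ybx3 and Pabpc1. For the 14 spermatogonia markers the median was 0.24, with sums of 691 to 791 CPM in Mov10-/- and 520 to 710 CPM in wild type. Wild type replicate 2 was lowest for them, as for Dazl and Cpeb1. It was lowest for the Sertoli, peritubular myoid and endothelial markers as well. The 12 Sertoli markers tested had a median of 0.31, and 6 were higher at an unadjusted p below 0.05, against 5.58% of all genes. Their sums were 1191 to 1395 CPM in Mov10-/- against 970 to 1148 CPM in wild type. Medians for markers of Leydig, peritubular myoid and endothelial cells and macrophages were 0.21, 0.34, 0.22 and 0.27. The part of these shifts in the levels of Papolb, Cpeb2, Dazl and Cpeb1 was not tested.

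**Figure D3:**
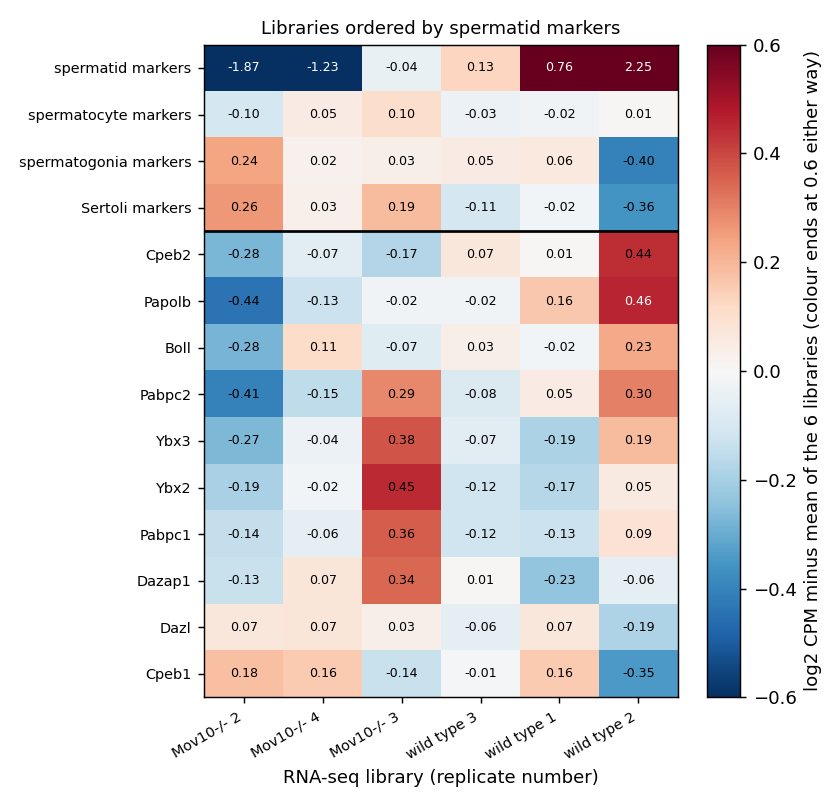
Log2 CPM of the 10 genes, and scores of 4 marker lists (mean over the list), each minus its mean over the 6 libraries, with libraries ordered from the lowest to the highest spermatid score (-1.87 to 2.25); colour ends at 0.6 in either direction and the printed values go beyond it. Cpeb2, Papolb, Boll and Pabpc2 are highest in wild type replicate 2 and lowest in Mov10-/- replicate 2. Dazl and Cpeb1 are lowest in wild type replicate 2, and Ybx2, Ybx3, Pabpc1 and Dazap1 are highest in Mov10-/- replicate 3.

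Ratios between related genes within a library do not depend on how the libraries are scaled. Whether a ratio lies above 1 can depend on the gene length used, but its log2 difference between genotypes does not. Per kilobase of the longest transcript, wild type Pabpc1 (89.0 RPKM) exceeded Pabpc2 (71.5 RPKM). Ybx3 (93.9 RPKM) likewise exceeded Ybx2 (81.5 RPKM). Counts of Pabpc1 are also less certain, since 20.7% of its 50-base windows occur in transcripts of other genes. The ratio of Papolb to Papola, in reads per kilobase of exon, was 1.07, 1.48 and 1.37 in Mov10-/- replicates 2, 3 and 4 and 1.66, 2.05 and 1.505 in wild type replicates 1, 2 and 3. All 3 knockout libraries were below all 3 wild type libraries, by 0.41 on the log2 scale (SE 0.19; two-sided exact permutation p = 0.1), which is the smallest p that 3 against 3 can give. The ratio of Pabpc2 to Pabpc1 also separated the genotypes, with 1.35, 1.55 and 1.52 in Mov10-/- and 1.84, 1.89 and 1.66 in wild type. The log2 difference was -0.29 (SE 0.08; exact permutation p = 0.1). Neither difference could pass 0.05 in this design, and over the 7 pairs computed the adjusted p of both was 0.233.

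The other 5 ratios overlapped between genotypes. Cpeb2 to Cpeb1 was 0.871, 1.17 and 1.03 in Mov10-/- and 1.08, 2.07 and 1.27 in wild type, a log2 difference of -0.48 (SE 0.31; exact permutation p = 0.2) that was -0.21 without wild type replicate 2. Boll to Dazl was 0.603, 0.711 and 0.788 in Mov10-/- and 0.724, 1.02 and 0.819 in wild type, a log2 difference of -0.28 (SE 0.18; exact permutation p = 0.2) that was -0.14 without wild type replicate 2 and -0.18 without Mov10-/- replicate 2. The Y-box ratios varied little: Ybx2 to Ybx1 ran from 1.37 to 1.46 over all 6 libraries and Ybx3 to Ybx1 from 1.01 to 1.15. Ybx2 to Ybx3 ran from 1.21 to 1.40, with a log2 difference of 0.11 (SE 0.05, exact permutation p = 0.2). These narrow ranges stand beside single-gene levels that varied 1.56-fold for both Ybx2 and Ybx3.

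**Figure D4:**
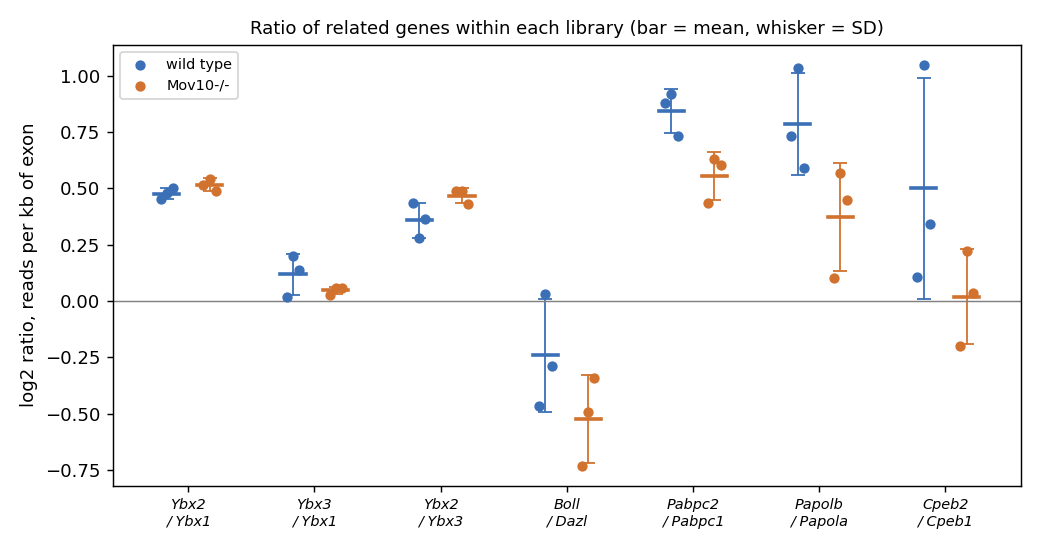
Log2 ratio of reads per kilobase of exon for 7 pairs of related genes in each library, wild type and Mov10-/-, with the mean (bar) and SD (whisker) of 3 libraries. Pabpc2 to Pabpc1 and Papolb to Papola have all Mov10-/- points below all wild type points, and the other 5 pairs overlap. The height of a pair depends on the gene length used, the difference between genotypes does not.

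No gene of the wider machinery passed the criterion of the main test. Leaving out the 10 genes, 109 of 112 listed genes could be tested in the lists of Y-box, DAZ, CPEB, poly(A)-binding, poly(A) polymerase, deadenylation, other germ-cell RNA-binding and cap-dependent initiation proteins. Of these 0 were called, 8 were lower and 1 was higher at an unadjusted p below 0.05, and their median log2 fold change was 0.03. Over all genes tested, 0.00494% were called, 11.9% were lower and 5.58% higher at that level, and the median was 0.03. DESeq2 called 1 of the 109, Btg4, and the edgeR exact test 2, Btg4 and Samd4, all lower. Over all genes, DESeq2 called 5.24% and the exact test 5.37%, in either direction. The 11 poly(A) polymerases had 3 genes lower at an unadjusted p below 0.05, Papolb, Tent5c and Tent5d, with a list median of -0.20. Tent5c, a noncanonical poly(A) polymerase, stood at 109, 131 and 125 CPM in Mov10-/- replicates 2, 3 and 4 and 196, 284 and 164 CPM in wild type replicates 1, 2 and 3 (log2 fold change -0.82, SE 0.20, adjusted p = 0.150). Its adjusted p was 0.00627 in DESeq2 and 0.00576 in the edgeR exact test, but the change was below 2-fold. The genotypes did not overlap for Tent5c, nor for Tent5d, whose log2 fold change was -0.85 (SE 0.27, adjusted p = 0.186).

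Among the 18 deadenylation genes, 3 were lower at an unadjusted p below 0.05 and 0 higher, with a median log2 fold change of 0.03. The shares over all genes tested were 11.9% lower and 5.58% higher. Btg4, an adaptor that recruits the CCR4-NOT deadenylase, had the largest change of that list, at 9.30, 8.02 and 13.5 CPM in Mov10-/- and 19.2, 31.6 and 17.6 CPM in wild type (log2 fold change -1.14, SE 0.32, adjusted p = 0.160), and it was the one gene of the list that DESeq2 called (adjusted p = 0.0284). Cnot4 and Pan3 were the other two, with log2 fold changes of -0.33 and -0.26. Of 48 other germ-cell RNA-binding proteins tested, 2 were lower and 1 higher at that level: Samd4 at -2.29 (SE 0.63, adjusted p = 0.156), Igf2bp3 at -0.46 and Msi1 at 0.26. The edgeR exact test called Samd4 (adjusted p = 0.0103) and DESeq2 did not (adjusted p = 0.0523). The wild type levels of Samd4 were 34.6, 138 and 25.5 CPM, so replicate 2 made up most of its mean. Of 14 initiation genes 0 passed an unadjusted p below 0.05, and in 4 the knockout values lay wholly above those of wild type. That order was seen in 11.9% of all genes tested.

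The listed mRNAs that such proteins are known to hold back or regulate had a lower median, but they did not all move together. Of 16 listed, 15 could be tested, 0 were called, 8 were lower and 0 higher at an unadjusted p below 0.05, and the median log2 fold change was -1.58. DESeq2 called 6 of them lower and the edgeR exact test 4, where these tests called 5.24% and 5.37% of all genes in either direction. At an unadjusted p below 0.05, 11.9% of all genes tested were lower. The log2 fold change was negative for 11 of the 15 and positive for 4. These 4, Sycp1, Sycp3, Ldhc and Tex19.1, reached at most 0.09. Tnp2, a transition protein of condensing spermatids, stood at 0, 1.44 and 0.247 CPM in Mov10-/- replicates 2, 3 and 4 and at 8.60, 47.5 and 2.58 CPM in wild type replicates 1, 2 and 3. Akap4, a protein of the sperm tail sheath, had 9.55, 33.1 and 16.2 CPM in Mov10-/- and 81.8, 192 and 46.9 CPM in wild type (log2 fold change -2.48, SE 0.60, adjusted p = 0.150). These were the 2 of the 15 mRNAs whose genotypes did not overlap, where 14.1% of all genes tested had knockout values wholly below those of wild type. Wild type replicate 2 was highest for both, as it was for Boll, Pabpc2, Papolb, Cpeb2 and the spermatid score. Most of the 8 lower mRNAs are themselves on the spermatid marker list, and Sycp1, Sycp3 and Ldhc are on the spermatocyte list. The lists are therefore not separate measurements.

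By the likeness of their profile to the mean of the 10 genes over the 6 libraries, the nearest of 15714 genes compared were Fam193a, Ciz1, Ift46, Dhx30 and Znhit1, with Pearson coefficients of 0.998 to 0.999. With 6 libraries such values are common, since 1007 genes exceeded 0.9, and all share the same libraries and depth. The mean is not a profile that the 10 genes share. Between pairs of them the coefficient ran from -0.897 (Dazl and Cpeb2) to 0.989 (Ybx2 and Pabpc1). The nearest genes are given as a description only.

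The start regions of 3 genes with unlike profiles are printed because the order of libraries differed among them: Papolb (highest in wild type replicate 2), Dazl (lowest there) and Ybx2 (highest in Mov10-/- replicate 3). The sequences are from RefSeq on GRCm38.p6, from 250 bases before to 50 bases after a transcript start, read along the gene. Capitals mark CCAAT, the CRE half-site TGACG, and TATAAA, on either strand. The regions are chr5:142530027-142530326 on the minus strand for Papolb, chr17:50293571-50293870 on the minus strand for Dazl and chr11:69935649-69935948 on the plus strand for Ybx2.
Papolb: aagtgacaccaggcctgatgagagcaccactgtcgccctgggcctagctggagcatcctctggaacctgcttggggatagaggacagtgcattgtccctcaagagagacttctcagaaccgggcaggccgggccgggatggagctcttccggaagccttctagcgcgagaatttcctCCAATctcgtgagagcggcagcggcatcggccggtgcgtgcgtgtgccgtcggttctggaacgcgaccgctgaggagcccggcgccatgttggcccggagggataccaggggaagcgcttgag
Dazl: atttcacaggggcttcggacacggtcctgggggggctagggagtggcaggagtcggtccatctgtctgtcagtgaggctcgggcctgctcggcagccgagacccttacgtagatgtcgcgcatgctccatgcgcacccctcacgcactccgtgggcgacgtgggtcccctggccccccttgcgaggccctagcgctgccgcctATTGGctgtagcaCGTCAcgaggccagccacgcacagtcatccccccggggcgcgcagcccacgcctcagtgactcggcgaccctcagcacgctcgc
Ybx2: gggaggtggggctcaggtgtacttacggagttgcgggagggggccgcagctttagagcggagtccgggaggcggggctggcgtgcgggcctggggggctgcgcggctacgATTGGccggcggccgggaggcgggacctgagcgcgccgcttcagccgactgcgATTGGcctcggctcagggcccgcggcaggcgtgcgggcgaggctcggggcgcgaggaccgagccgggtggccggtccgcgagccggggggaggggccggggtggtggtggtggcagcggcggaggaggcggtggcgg
RefSeq gave such a region for 7 of the 10 genes, 9 in all. CCAAT was in 4 of the 9, those of Boll, Dazl, Papolb and Ybx2, against 37.4% of all 32851 promoters, and TGACG was in 2, Dazl and Cpeb1, against 20.8%. TATAAA was in the Cpeb1 region only, against 13.6%, and the full CRE sequence TGACGTCA, which contains the half-site on both strands, was in 0 of 9, against 1.79%. The 9 regions are rich in CpG, and in the 3 printed the count is 23 for Papolb, 28 for Dazl and 40 for Ybx2, where the median of all promoters is 7.

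MOV10 CLIP-seq put few reads on the 10 genes, and the depth did not allow a comparison gene by gene. Counting replicates 1 to 3 as 1 library, since they differed from each other by less than sampling noise, Boll had 2 reads in each of replicates 1, 2 and 3 and 0 in replicate 5. Ybx3 had 1, 1, 1 and 0 reads, Dazl 1, 0, 1 and 0, and Pabpc1 0, 0, 0 and 2. No read fell on Ybx2, Dazap1, Pabpc2, Papolb, Cpeb1 or Cpeb2 in any of the 4 libraries. A count of 0 allows up to 608 RPM in replicate 5 and 835 RPM in replicates 1 to 3 averaged, which is above the wild type RNA-seq level of each of the 10 genes, 65.1 RPM (Cpeb1) to 260 RPM (Pabpc1). Intervals and limits here cover counting error only.

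Of the 10 genes 4 had at least 1 CLIP-seq read, and 38.6% of the 5283 genes with wild type RNA-seq levels in that range did. The 10 genes together held 5.67 reads where their share of wild type RNA-seq reads gives 13.6 (6 reads, exact Poisson 95% interval 2.20 to 13.1). The mean share of CLIP-seq reads on them was 0.446 of their share of RNA-seq reads, whereas the ratio was 0.957 for the 5283 genes. That ratio fell to 0.254 in replicate 5 alone and rose to 0.639 without it. With all placed reads as the total, the ratio of the 10 genes was 0.0746. Most placed reads lay outside genes in CLIP-seq but not in RNA-seq, so that total lowers the ratio of any set of genes. The ratio of the 5283 genes was not recomputed on it, so 0.0746 has no value to stand beside. No input or mock library was compared, so a read is not evidence of binding, and 0 reads is not evidence of its absence.

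**Figure D5:**
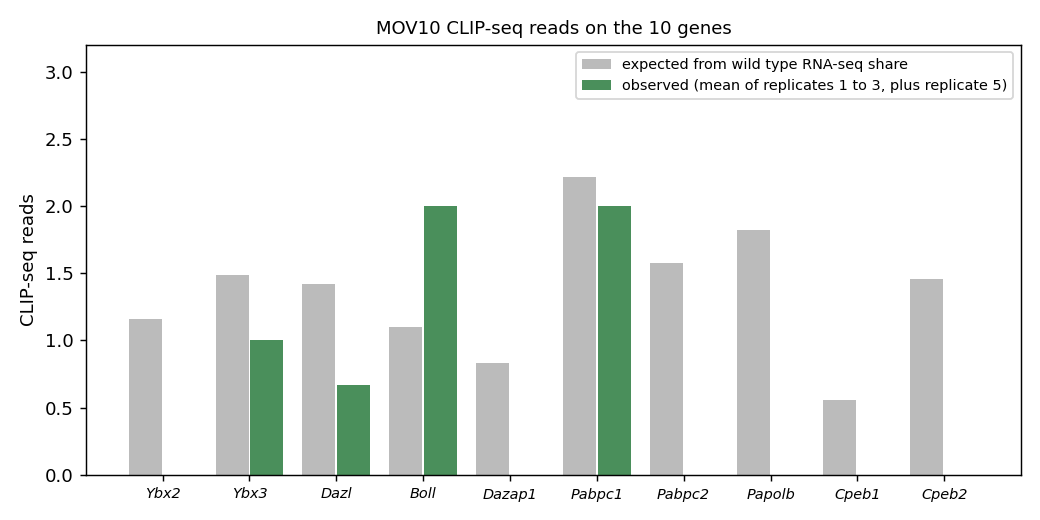
CLIP-seq reads on each of the 10 genes (green; mean of replicates 1 to 3 plus replicate 5), beside the number given by the gene's share of wild type RNA-seq reads (grey). No gene has more than 2 observed or 2.21 expected reads, and 6 have none.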

How the data were processed

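The authors deposited raw counts per gene: RNA-seq reads were aligned to mm10 with STAR, counted with htseq-count on Ensembl genes and compared with edgeR. How the CLIP-seq counts were aligned is not given in the sources used here. Per the methods each RNA-seq library came from the testes of a separate animal. Depth was 5083407 to 9230540 reads on genes in RNA-seq and 3404 to 4934 in CLIP-seq. Here, a gene was tested where 3 or more RNA-seq libraries exceeded 1 RPM, with edgeR 4.0.16 (TMM, quasi-likelihood test, Benjamini-Hochberg adjustment), and called at a fold change above 2 and adjusted p below 0.05. DESeq2 1.42.0, limma 3.58.1 (voom), the edgeR exact test, other scalings, filters, a replicate block and each library left out in turn were alternatives. The procedure was tested on simulated data. Ratios were compared by exact permutation (scipy 1.17.1). Named genes were the 10 members, listed relatives and, per list, those with the smallest p, at most 4. Paip2b, Sycp1, Sycp3, Ldhc and Tex19.1 were added to complete counts. Members and lists were chosen with earlier results of these data known. Rows of reads on no gene, such as unaligned or ambiguous reads (52.8% to 71.7% of RNA-seq reads, 99.9% or more of CLIP-seq reads), were left out of library sizes. RNA-seq and CLIP-seq counts were compared only as shares.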

Additional observations from a re-analysis of the deposited data

Results flagged for a closer look

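CLIP-seq replicate 5 stood apart from replicates 1, 2 and 3 for 3 of the 4 genes that had a read. Ybx3 was at 0 RPM in replicate 5 and at 253 to 294 RPM in the others, Boll was at 0 RPM against 507 to 588 RPM, and Pabpc1 was at 405 RPM against 0. The criterion was the gap to the nearest library over the range of the 4; its rate of about 1 in 20 by chance holds for independent, continuous values and does not apply here. Each of these values rests on 0 to 2 reads, and replicates 1 to 3 differed among themselves by less than sampling noise, so that a read in them and none in replicate 5, or the reverse, nearly always meets the criterion. The libraries were made from RNA of the main MOV10 band and of a higher position on the gel, and the labels do not say which is which. The cause was not tested.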

How the results depend on the processing

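None of the 10 genes was called under any alternative. The number of all genes called was 1 in the main test, 6 with library totals only, 10 with no filter, 2 with limma voom, 1039 with DESeq2, 1086 with the edgeR exact test and 184 with a replicate block, and 0 to 1 with a library left out, 0 without Mov10-/- replicate 3 or 4. Replicate numbers are shared only by numbers 2 and 3, whose deviations correlated at -0.462 and -0.343, and they mark no shared animal; with the block, Ybx3 went to -0.0064 on the log2 scale and no member was called. With a library left out, the median log2 fold change of the members ran from -0.090 (without Mov10-/- replicate 3) to 0.10, that of Ybx2 from -0.028 to 0.306, that of Pabpc1 from -0.048 to 0.217 and that of Ybx3 from -0.13 to 0.198; all 3 genes had their lowest value, below 0, without Mov10-/- replicate 3, and Ybx3 was also below 0, at -0.038, without wild type replicate 1. Papolb, Cpeb2, Boll and Pabpc2 kept a negative sign in all alternatives run, and Dazl, Dazap1 and Cpeb1 kept a positive one. The CLIP-seq share ratio, 0.446, was 0.0746 with all placed reads as the total and 0.0863 with TMM across both assays. Per kilobase of the longest transcript, wild type levels were 81.5 (Ybx2), 93.9 (Ybx3), 56.1 (Dazl), 49.1 (Boll), 47.0 (Dazap1), 89.0 (Pabpc1) and 20.9 (Cpeb1) RPKM. Of all values recomputed, 263 kept direction, side of the threshold or size. Another 18 moved, among them the median of the members without Mov10-/- replicate 3, which also changed sign. A further 5, all log2 fold changes of Ybx2, Ybx3 or Pabpc1, changed sign. With 3 libraries a genotype, the intervals allow changes up to those printed, and the CLIP-seq depth limits what can be said of single genes.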
